A study of Mus musculus with 8 samples.

Results

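The cytochrome P450 family of the mouse was followed in neonatal epidermis with and without *Rora* in keratinocytes. Its members were taken as the protein-coding genes whose symbol is Cyp followed by a number, a letter and a number, with *Cyp4f39* and *Cyp26b1* left out. This gave 92 of the 55416 genes in the count table. Of the 92, 19 passed the filter on low counts and were tested, and the other 73 were not. RNA-seq had been done on the epidermis peeled from the dorsal skin of mice at postnatal day 4, with 4 control and 4 *RoraEKO* libraries. *RoraEKO* mice came from a cross of the *Rora flox/flox* strain with K14-Cre, a Cre driven by the keratin 14 promoter, which is active in the basal keratinocytes of the epidermis and its appendages. The control samples carry the genotype label WT and are littermates in the study's text, which does not say whether they carried the floxed alleles or Cre. The labels do not say which libraries came from littermates, and p-values measure the spread between these samples.

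P450 enzymes hold a haem and use oxygen to hydroxylate or epoxidise small lipophilic molecules. Most sit in the membrane of the endoplasmic reticulum and take electrons from P450 oxidoreductase, whereas the mitochondrial forms take them from ferredoxin. The CYP1, CYP2 and CYP3 families are known for the oxidation of drugs and pollutants and, for several CYP2 enzymes, of arachidonic acid. CYP4 enzymes hydroxylate the end of fatty acid chains, and the remaining families make or break down steroids, bile acids, vitamin D and retinoic acid. In skin, P450s act on barrier fatty acids and eicosanoids as well as on vitamin D and foreign compounds.

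The libraries held between 17286903 and 26705533 counts, so that a floor of 3 counts lay between 0.113 and 0.196 CPM, the count scaled to library size with TMM factors. *Rora* itself measured 212 ± 66.6 CPM in control and 196 ± 34.6 CPM in *RoraEKO* (SD, n = 4 per genotype; log2 fold change -0.11 with edgeR's quasi-likelihood test, adjusted p = 0.877). This count covers the whole gene without separating the exons that Cre removes, and it does not check the genotype labels. *Xist* was high in control C1 and C6 (416 and 527 CPM) and at or below 0.0546 CPM in the other 6 libraries, so that both libraries with *Xist* are controls. *Ddx3y*, on the Y chromosome, was at 0 CPM in C1 and C6 and between 15.7 and 24.1 CPM in the other 6. By these genes C1 and C6 were female and the other 6 libraries male. All *RoraEKO* libraries were thus male, and sex is partly confounded with genotype. The tissue held keratinocyte genes at high levels. The summed CPM of 6 granular keratinocyte markers ran from 10339 to 13885 in control and from 11909 to 15698 in *RoraEKO*, and that of 5 spinous markers from 44840 to 70750 and from 86045 to 107112. *Krt1* and *Krt10* made up most of the spinous sums, with log2 fold changes of 0.70 and 0.66, whereas *Krtdap*, *Sbsn* and *Dsg1a* had -0.34, -0.04 and 0.02. None of the 66 tested genes on 15 lists of cell type markers passed the cutoffs with edgeR's quasi-likelihood test. Of these, 12 had an unadjusted p under 0.05, and 5 (*Casp14*, *Krt1*, *Krt10*, *S100a9* and *Tyr*) passed with DESeq2. All 5 erythroid markers had fold changes above 0 (median log2 1.94, summed 47.8 to 334 CPM in control and 125 to 1041 in *RoraEKO*), as had all 4 tested T cell markers. All 5 melanocyte markers had fold changes below 0 (median log2 -0.84, summed 25.2 to 56.2 CPM and 17.3 to 33.2). Their part in the levels of the P450 genes was not tested.

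*Cyp2b19* dominated the family. This gene encodes an arachidonic acid epoxygenase known from the upper layers of the epidermis. Levels of different genes are compared here per length, as CPM per kilobase of annotated exon. *Cyp2b19* stood at 254 ± 119 CPM per kilobase in control, rank 186 among the 13147 genes tested, and at 68.1 ± 36.6 in *RoraEKO* (SD, n = 4). It made up 73.6% ± 12.4 of the summed level per kilobase of the 19 tested members in control and 43.8% ± 13.6 in *RoraEKO*.

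Below *Cyp2b19* came a group of CYP2 enzymes and a steroid enzyme. *Cyp2b10*, the classical phenobarbital-inducible form of liver, stood at 16.5 ± 3.75 CPM per kilobase in control and 32.8 ± 1.67 in *RoraEKO*. *Cyp17a1*, the hydroxylase and lyase on the way from progestins to androgens, stood at 11.0 ± 1.41 and 14.0 ± 3.85. *Cyp2f2*, which oxidises naphthalene in the club cells of the lung, was second in control (18.7 ± 5.90) and seventh in *RoraEKO* (2.01 ± 1.28). *Cyp2s1*, an epithelial form, stood at 8.38 ± 0.387 and 11.4 ± 1.55. *Cyp2g1*, best known from the olfactory mucosa, stood at 11.5 ± 15.3 and 4.57 ± 2.75. *Cyp3a13*, a CYP3A drug oxidase, stood at 2.85 ± 0.523 and 6.83 ± 1.16 CPM per kilobase.

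The last of the 10 highest members were *Cyp2w1*, *Cyp2j6* and *Cyp39a1*, the last of which hydroxylates oxysterols on the bile acid route. Their means lay between 1.24 and 2.19 CPM per kilobase in both genotypes. The remaining 9 tested members were, from high to low, *Cyp4f17*, *Cyp1a1*, *Cyp4f13*, *Cyp4f16*, *Cyp11a1*, *Cyp2j9*, *Cyp2r1*, *Cyp1b1* and *Cyp4b1*, with means over the 8 libraries from 1.14 to 0.0595 CPM per kilobase. Every pair of neighbours in this order had ranges over the 8 libraries that overlapped. Among the first 6 the order depended on the length and the libraries used. By the longest transcript *Cyp2s1* came 3rd and *Cyp17a1* 5th, and in control libraries alone *Cyp2f2* came 2nd and *Cyp2g1* 4th, while *Cyp2b19* was first each time. Within single libraries *Cyp2b19* exceeded *Cyp2b10* in 7 of 8, and *Cyp2b10* exceeded *Cyp17a1* in 8 of 8.

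**Figure D1:**
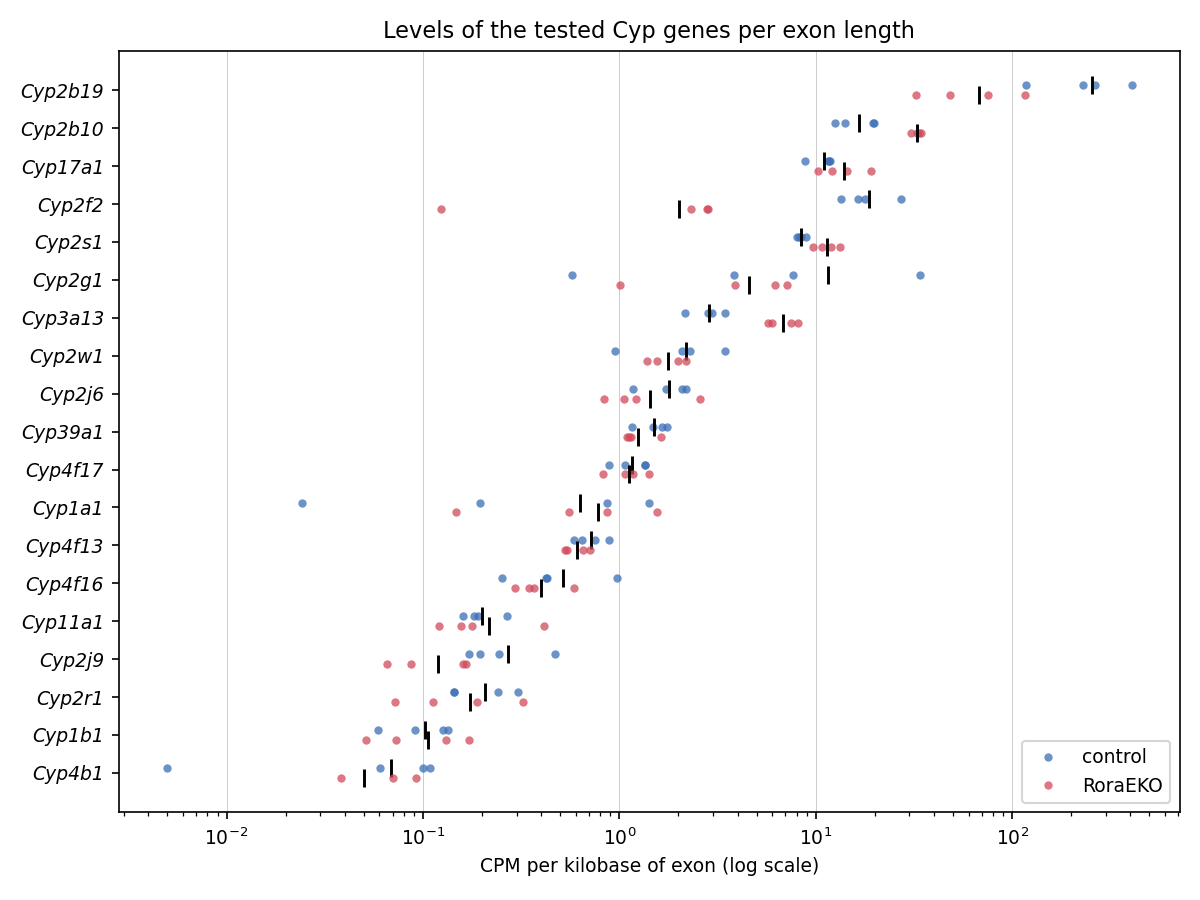
Level of each of the 19 tested Cyp genes in CPM per kilobase of exon (log scale), with 1 point per library (blue, control; red, *RoraEKO*) and a black tick at the mean of each genotype. *Cyp4b1* in *RoraEKO* A3 was at 0 and is not drawn. *Cyp2b19* has the highest mean in both genotypes, and its lowest control library lies just above its highest *RoraEKO* library.

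By class, the tested members were 2 of 3 CYP1 genes, 8 of 48 CYP2 genes, 1 of 7 CYP3A genes, 4 of 16 CYP4 genes, 1 of 4 vitamin D genes, 1 of 6 sterol and bile acid genes and 2 of 6 steroid hormone genes, with *Cyp27a1* counted in both the vitamin D and the sterol and bile acid class. Neither of the 2 retinoic acid genes counted here nor the orphan *Cyp20a1* passed the filter. *Cyp2r1*, which adds the first hydroxyl group to vitamin D, was the tested vitamin D member. *Cyp27b1*, which makes the active hormone and is known from keratinocytes, had between 2 and 8 counts per library and was not tested.

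Between genotypes, 2 tested members passed the cutoffs as higher in *RoraEKO* (*Cyp3a13* and *Cyp2b10*) and 2 as lower (*Cyp2f2* and *Cyp2b19*). To pass, a gene needed an adjusted p under 0.05 (Benjamini-Hochberg, over the 13147 genes tested) and a change of at least 1.5-fold. Over all genes tested, 2.3% passed as higher, 3.22% as lower and 5.51% in either direction. The median log2 fold change was -0.28 over the 19 members, with 7 above 0 and 12 below, and -0.04 over all genes tested. The 4 control and 4 *RoraEKO* libraries did not overlap for 6 members, namely these 4 with *Cyp2s1* and *Cyp2j9*. Of all genes tested, 12.9% had libraries that did not overlap.

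**Figure D2:**
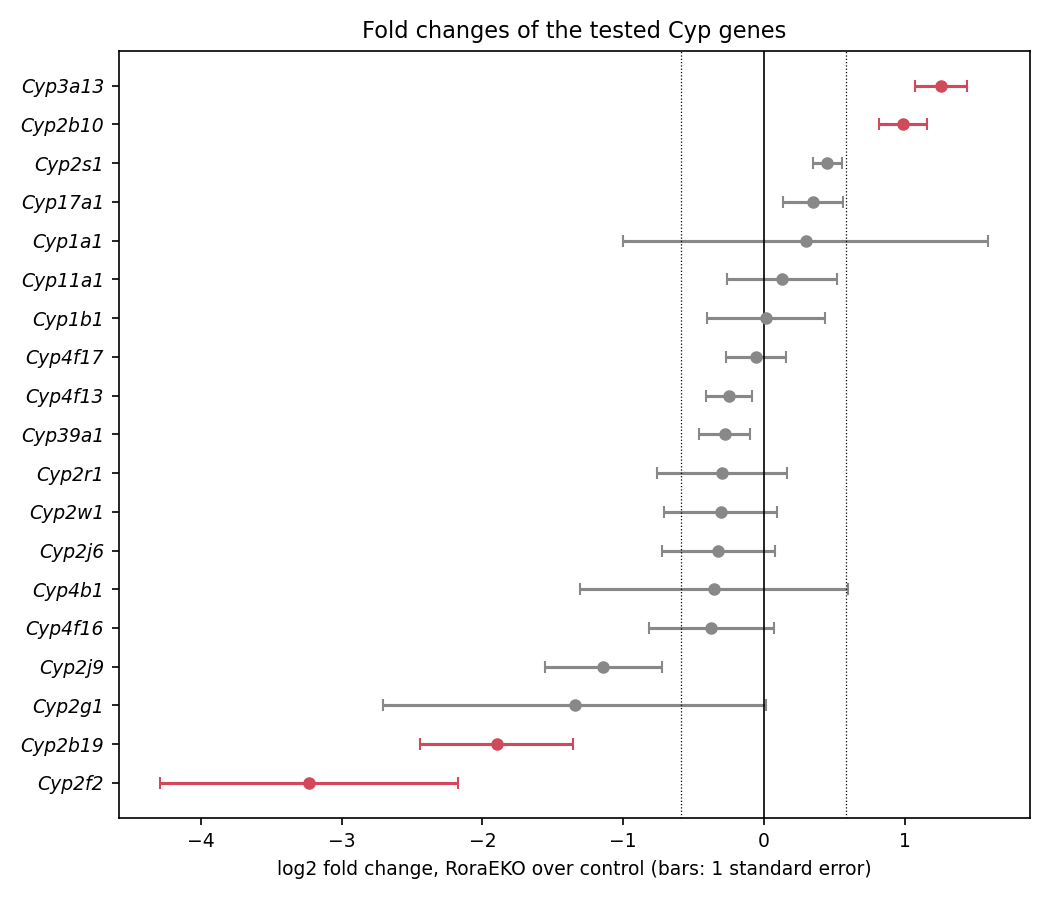
Log2 fold change of *RoraEKO* over control for the 19 tested Cyp genes, with bars of 1 standard error and dotted lines at a fold change of 1.5. The 4 red points passed the cutoffs, *Cyp3a13* and *Cyp2b10* to the right of 0 and *Cyp2b19* and *Cyp2f2* to the left.

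*Cyp2b19* (ENSMUSG00000066704; GRCm39 chr7:26456567-26472055, plus strand) fell in *RoraEKO*. It measured 489, 956, 1097 and 1689 CPM in control A1, B1, C1 and C6, and 134, 202, 484 and 316 CPM in *RoraEKO* A3, B4, C2 and C3. The groups did not overlap, although control A1 and *RoraEKO* C2 lay next to each other. The means were 1058 ± 495 CPM in control and 284 ± 153 CPM in *RoraEKO*, 3.73-fold lower (log2 fold change -1.90, SE 0.545, adjusted p = 0.0397, edgeR quasi-likelihood test). Within libraries whose titles share a letter, control exceeded *RoraEKO* 3.64-fold for A, 4.74-fold for B and 3.48-fold for C.

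The call for *Cyp2b19* was lost in 8 of 20 alternatives, while its direction was kept in all of them. Control C1 and C6, the libraries with *Xist* and thus the female ones, were also the highest in *Cyp2b19*. With *Xist* as a covariate the log2 fold change was -1.34 (adjusted p = 0.176, edgeR quasi-likelihood test), and over the 6 libraries without *Xist* it was -1.31 (adjusted p = 0.225). The adjusted p was 0.0758, 0.0891, 0.111, 0.0899, 0.103 and 0.0887 without A3, B1, B4, C1, C3 and C6 in turn. Genes of the granular layer, where the enzyme is known to be made, had fold changes on both sides of 0. Of the 6 granular markers tested, none passed the cutoffs with the edgeR quasi-likelihood test, and *Casp14* passed with DESeq2. Their log2 fold changes ran from -0.41 for *Ivl* to 0.64 for *Casp14*, and *Casp14* and *Tgm3* were higher in *RoraEKO* without overlap. Their part in the level of *Cyp2b19* was not tested. In bulk tissue, fewer cells that make a transcript and less of it per cell cannot be told apart.

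*Cyp2f2* (ENSMUSG00000052974; chr7:26819322-26833090, plus strand) fell further. It measured 45.0, 90.5, 54.8 and 59.4 CPM in control A1, B1, C1 and C6, and 9.27, 0.411, 9.40 and 7.69 CPM in *RoraEKO* A3, B4, C2 and C3. Each control library was far above each *RoraEKO* library, and B4 was nearly without the transcript. The means were 62.4 ± 19.6 and 6.69 ± 4.26 CPM, 9.41-fold lower in *RoraEKO* (log2 fold change -3.23, SE 1.06, adjusted p = 0.0193, edgeR quasi-likelihood test). The call was lost over the 6 libraries without *Xist* (adjusted p = 0.0785), without control B1 (0.0614) and without *RoraEKO* C3 (0.0635), with log2 fold changes from -3.31 to -3.00. Without B4 the log2 fold change was -2.83 and the adjusted p 0.00105.

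*Cyp3a13* (ENSMUSG00000029727; chr5:137891193-137919882, minus strand) rose in *RoraEKO*. It measured 7.08, 9.29, 11.2 and 9.68 CPM in control A1, B1, C1 and C6, and 18.7, 24.4, 26.6 and 19.6 CPM in *RoraEKO* A3, B4, C2 and C3. The groups were well apart, at 9.32 ± 1.71 and 22.3 ± 3.79 CPM (2.40-fold, log2 fold change 1.26, SE 0.184, adjusted p = 0.00341, edgeR quasi-likelihood test). It passed the cutoffs in all 20 alternatives, with log2 fold changes from 1.15 to 1.5.

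*Cyp2b10* (ENSMUSG00000030483; chr7:25597045-25626049, plus strand) rose in *RoraEKO* with little spread. It measured 26.5, 41.5, 41.9 and 29.9 CPM in control A1, B1, C1 and C6, and 69.5, 71.0, 72.8 and 64.5 CPM in *RoraEKO* A3, B4, C2 and C3. The means were 34.9 ± 7.94 and 69.4 ± 3.54 CPM (1.99-fold, log2 fold change 0.99, SE 0.172, adjusted p = 0.00673, edgeR quasi-likelihood test). It passed the cutoffs in all 20 alternatives, with log2 fold changes from 0.88 to 1.09.

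The remaining 2 members without overlap did not pass the cutoffs. *Cyp2s1* (chr7:25501895-25516338, minus strand) measured 39.5, 40.6, 41.6 and 44.0 CPM in control A1, B1, C1 and C6, and 59.3, 53.1, 65.9 and 48.1 CPM in *RoraEKO* A3, B4, C2 and C3. Its control libraries were tightly grouped and all lower, and the difference was 1.37-fold (log2 fold change 0.45, SE 0.103, adjusted p = 0.0589, edgeR quasi-likelihood test). Over the 20 alternatives its adjusted p lay between 0.00971 and 0.170, and its fold change stayed under 1.5 in each. *Cyp2j9* measured 1.22, 2.35, 0.852 and 0.976 CPM in control A1, B1, C1 and C6, and 0.326, 0.822, 0.434 and 0.799 CPM in *RoraEKO* A3, B4, C2 and C3. Its groups were separated by a narrow gap between control C1 and *RoraEKO* B4 (log2 fold change -1.14, SE 0.414, adjusted p = 0.201, edgeR quasi-likelihood test).

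**Figure D3:**
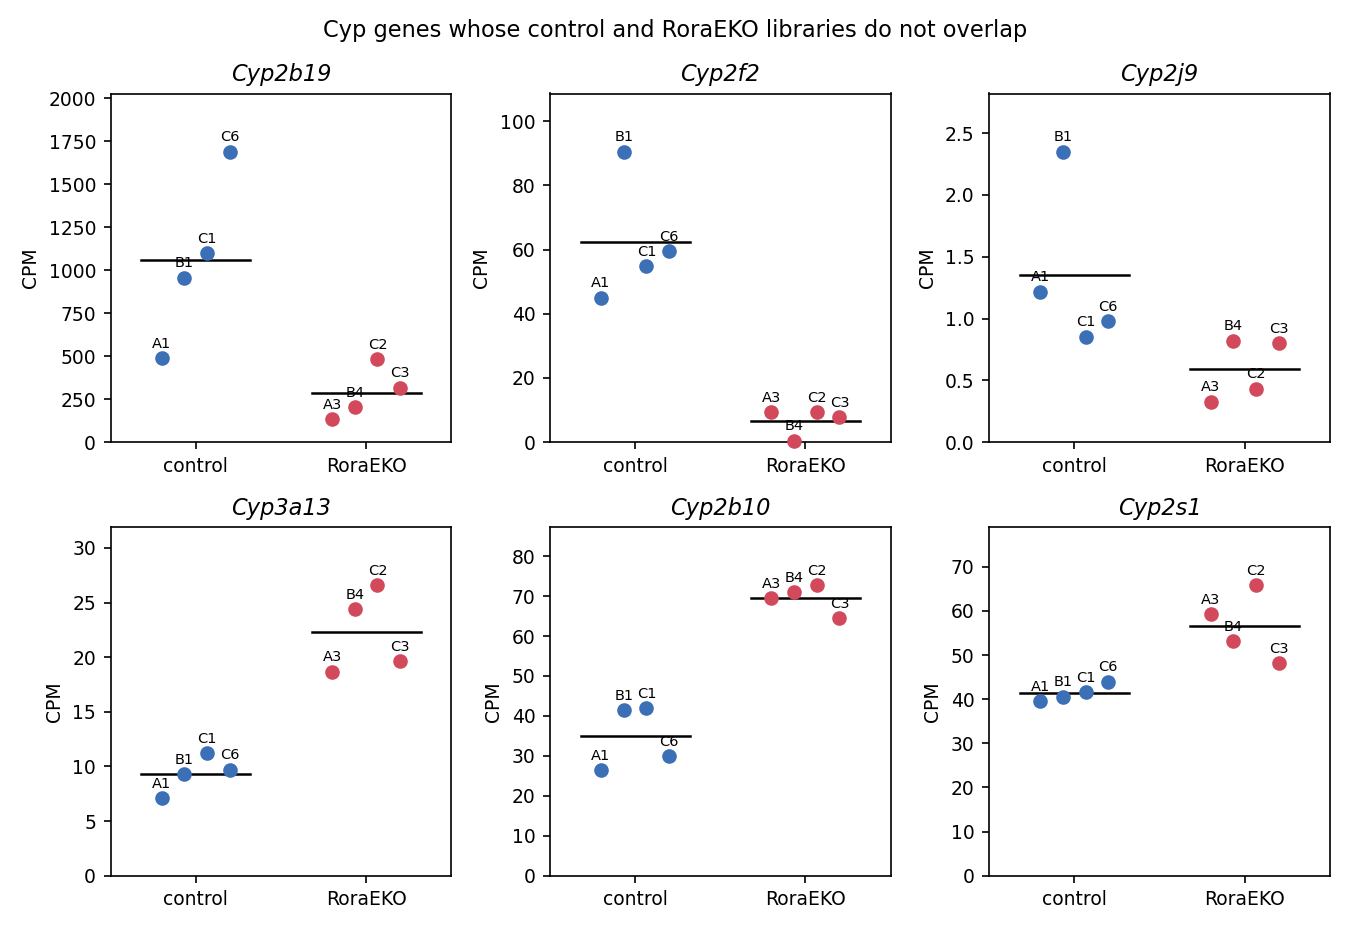
CPM of the 6 Cyp genes whose libraries did not overlap between genotypes, with 1 point per library, its name above it, and a line at the mean of the 4 libraries. *Cyp2b19*, *Cyp2f2* and *Cyp2j9* are lower in *RoraEKO* and *Cyp3a13*, *Cyp2b10* and *Cyp2s1* are higher, and each vertical axis starts at 0.

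Of the 4 members past the cutoffs, 3 lie in the Cyp2 gene cluster of chromosome 7. The stretch from *Cyp2s1* to *Cyp2t4* (GRCm39 chr7:25501895-26858093, 1356.2 kilobases, limits chosen after the values were seen) held 13 members, of which 5 were tested. *Cyp2s1* and *Cyp2b10*, whose first bases lie 95.2 kilobases apart, had fold changes above 0. *Cyp2b19*, *Cyp2g1* and *Cyp2f2*, at 955, 1006 and 1317 kilobases from the first base of the cluster, had fold changes below 0, but that of *Cyp2g1* was above 0 without control A1 (log2 fold change 0.17). The 5 other protein-coding genes wholly within these limits were too low to test. *Egln2*, which overlaps *Cyp2t4* on the opposite strand and reaches past the end of the stretch, had a log2 fold change of -0.09 (adjusted p = 0.889, edgeR quasi-likelihood test).

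**Figure D4:**
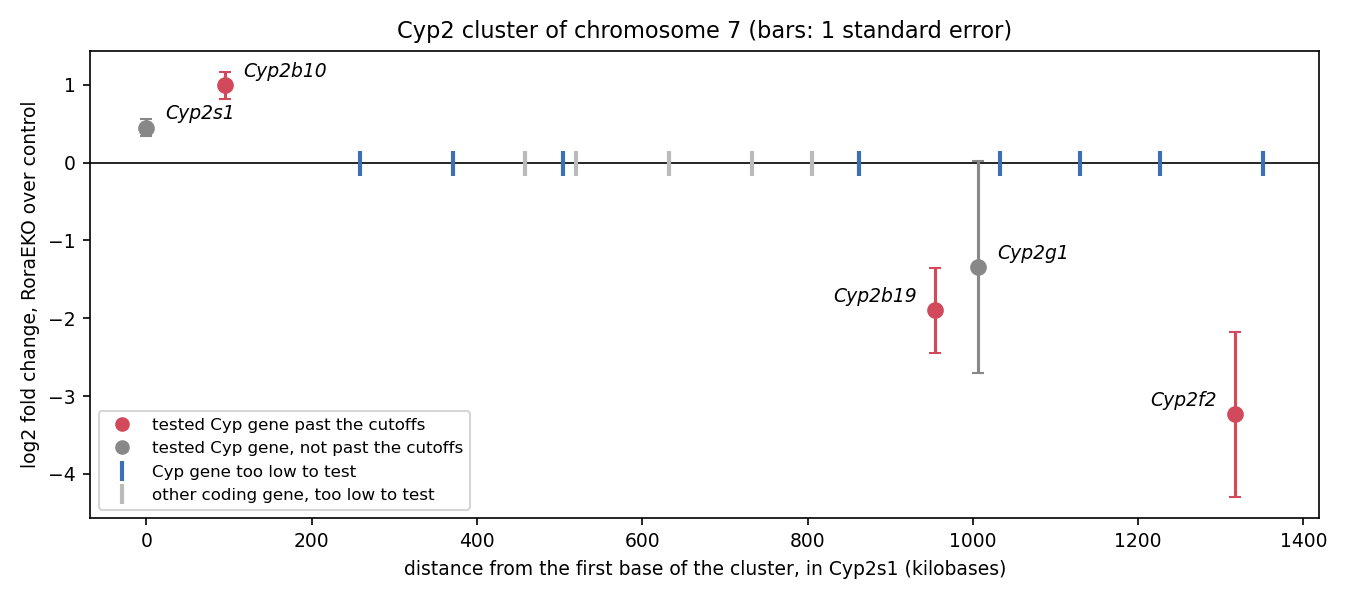
Log2 fold change of *RoraEKO* over control against distance along the Cyp2 cluster of chromosome 7 in kilobases, with bars of 1 standard error. The 5 tested Cyp genes are circles, red where they passed the cutoffs, and ticks on the zero line mark 8 Cyp genes (blue) and 5 other coding genes (grey) that were too low to test. *Cyp2s1* and *Cyp2b10* lie above 0, and *Cyp2b19*, *Cyp2g1* and *Cyp2f2* below, *Cyp2g1* only with control A1 included.

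*Cyp2b10* and *Cyp2b19* moved in opposite directions although they are close relatives. Their coding sequences were identical at 1293 of 1476 aligned columns (87.6%), with a longest identical run of 53 bases. The first 60 coding bases of each are given to show the kind of differences by which reads of the pair can be told apart, with the 15 bases that differ in capitals. This stretch, at 75% identity, differs more than the coding sequence as a whole (*Cyp2b10* at chr7:25597110-25597169 and *Cyp2b19* at chr7:26456612-26456671, both GRCm39, plus strand, coding exon).
Cyp2b10: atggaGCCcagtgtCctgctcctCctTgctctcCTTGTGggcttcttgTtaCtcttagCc
Cyp2b19: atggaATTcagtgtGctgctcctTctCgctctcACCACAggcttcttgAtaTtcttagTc
RSEM shares reads that fit both genes by estimate. *Cyp2b19* had a longer identical run, 104 bases, with *Cyp2b23* (87.0% identity), but *Cyp2b23* had 2 counts over the 8 libraries together. *Cyp2b10* was closer to *Cyp2b13* (88.7% identity, run of 86 bases) and *Cyp2b9* (87.8%, run of 55) than to *Cyp2b19*. *Cyp2b13* had no counts, and *Cyp2b9* had 13, all in control C6. Other tested members also had close relatives. *Cyp4f16* was 92.0% identical to *Cyp4f37* with a run of 188 bases and 84.3% identical to *Cyp4f17* with a run of 101. *Cyp4f13* was 84.0% identical to *Cyp4f17*, and *Cyp2j6* was 82.6% identical to *Cyp2j9*. Reads of these genes could be split between them.

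RORα is a nuclear receptor that binds as a monomer to the half-site AGGTCA after an A/T-rich stretch. The stretch from 250 to 61 bases before the RefSeq start of the 4 members past the cutoffs is shown because these genes moved with the genotype, with AGGTCA in capitals where it occurs on the strand of the gene. The sequences came from RefSeq promoters of GRCm38.p6, and each had 1 exact match in GRCm39, which gave the positions (*Cyp2b19*, chr7:26456317-26456506; *Cyp2f2*, chr7:26819130-26819319; *Cyp2b10*, chr7:25596833-25597022, all plus strand; *Cyp3a13*, chr5:137919942-137920131, minus strand).
Cyp2b19: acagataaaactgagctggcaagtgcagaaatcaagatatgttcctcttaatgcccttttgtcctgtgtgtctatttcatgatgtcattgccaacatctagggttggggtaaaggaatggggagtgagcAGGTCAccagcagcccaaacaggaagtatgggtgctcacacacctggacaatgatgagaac
Cyp2f2: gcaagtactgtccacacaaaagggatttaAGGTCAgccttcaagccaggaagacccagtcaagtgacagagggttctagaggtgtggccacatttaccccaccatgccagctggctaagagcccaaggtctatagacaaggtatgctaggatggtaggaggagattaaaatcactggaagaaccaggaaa
Cyp2b10: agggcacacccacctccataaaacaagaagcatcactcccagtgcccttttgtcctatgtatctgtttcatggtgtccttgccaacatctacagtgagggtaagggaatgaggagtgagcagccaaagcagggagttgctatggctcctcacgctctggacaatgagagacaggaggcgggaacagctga
Cyp3a13: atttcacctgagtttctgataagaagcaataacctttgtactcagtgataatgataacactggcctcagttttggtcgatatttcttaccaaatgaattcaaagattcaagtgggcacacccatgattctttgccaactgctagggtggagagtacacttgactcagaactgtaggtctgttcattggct
AGGTCA lay 121 to 116 bases before the start of *Cyp2b19* and 221 to 216 before that of *Cyp2f2*, and it was in neither of the windows of *Cyp2b10* and *Cyp3a13*. Searched on both strands from 250 bases before to 50 after each start, AGGTCA was in 16.3% of 32851 promoters, in 12.6% of those of genes tested here, and in those of 3 of the 15 tested members that had one (*Cyp11a1*, *Cyp2b19* and *Cyp2f2*). The longer TAGGTCA, which contains AGGTCA, was in 2.61% of all promoters and in none of the 15. It was in 1.94% of those of genes tested here. TGGGTCA was in 3.98% of all promoters, in 3.4% of those of genes tested here and in 1 of the 15 (*Cyp1b1*). GCGTG, the core bound by the aryl hydrocarbon receptor, was in 32.4% and 49.8%, and in 7 of the 15. Of the 6 bases just before AGGTCA, 2 were A or T in *Cyp2b19* and 5 in *Cyp2f2*, so the match in *Cyp2b19* does not follow an A/T-rich stretch. A match of letters is no evidence of binding. Over the 250 bases before the start of each, *Cyp2b10* and *Cyp2b19* were identical at 177 of 272 aligned columns (65.1%).

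The other tested members did not pass the cutoffs, and several varied more between libraries than between genotypes. *Cyp2g1* measured 73.4, 8.25, 1.23 and 16.6 CPM in control A1, B1, C1 and C6, and 13.4, 8.38, 2.17 and 15.4 CPM in *RoraEKO* A3, B4, C2 and C3. Control A1 stood far above the rest, and the log2 fold change of -1.34 (adjusted p = 0.551, edgeR quasi-likelihood test) was 0.17 without it. Of 8 sebocyte markers, 5 were also highest in A1. *Awat2*, a wax synthase, was at 17.1 CPM in A1 and 1.28 CPM in C1, whereas *Dgat2* was at 331 CPM in A1 and 363 CPM in C1, and *Fasn* at 147 and 139 CPM. The 8 sebocyte markers summed to between 621 and 934 CPM in control and between 602 and 750 CPM in *RoraEKO*. The sums of 10 hair genes were between 4818 and 34054 CPM in control and between 9772 and 23138 CPM in *RoraEKO*. Each of the 10 hair genes was highest in A1, where they summed to 34054 CPM. Their part in the level of *Cyp2g1* was not tested.

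*Cyp1a1*, the aryl hydrocarbon receptor's best known target, measured 5.56, 0.765, 0.0947 and 3.38 CPM in control A1, B1, C1 and C6, and 2.15, 3.37, 0.578 and 6.09 CPM in *RoraEKO* A3, B4, C2 and C3. The groups overlapped over nearly their whole range (log2 fold change 0.30, SE 1.30, adjusted p = 0.926, edgeR quasi-likelihood test). *Cyp1b1*, a related enzyme, had a log2 fold change of 0.02 (adjusted p = 0.994). Both changed sign in some alternatives.

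*Cyp17a1* measured 31.9, 32.8, 24.5 and 32.3 CPM in control A1, B1, C1 and C6, and 53.1, 28.4, 39.8 and 33.6 CPM in *RoraEKO* A3, B4, C2 and C3. *RoraEKO* B4 lay within the control range (log2 fold change 0.35, SE 0.216, adjusted p = 0.398, edgeR quasi-likelihood test). *Cyp11a1*, which cuts the side chain of cholesterol in steroid synthesis, was near 1 CPM in most libraries. The 4 tested CYP4 genes, *Cyp4f13*, *Cyp4f16*, *Cyp4f17* and *Cyp4b1*, had log2 fold changes from -0.37 to -0.05. *Cyp2j6*, *Cyp2w1*, *Cyp2r1* and *Cyp39a1* had log2 fold changes from -0.32 to -0.28, with adjusted p values from 0.568 to 0.845 (edgeR quasi-likelihood test). *Cyp2r1* and *Cyp4f17* were above 0 when *Xist* was taken into account.

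Without *Cyp2b19*, the family's total overlapped between the genotypes. The sums of the 19 members were 752, 1218, 1305 and 1920 CPM in control (A1, B1, C1, C6) and were 386, 425, 730 and 540 CPM in *RoraEKO* A3, B4, C2 and C3. Without *Cyp2b19* the sums were 263, 262, 208 and 231 CPM, and 251, 223, 246 and 224 CPM in the same order, with means of 241 ± 26.6 and 236 ± 14.7. The genotypes were apart in the first sum and overlapped in the second. The second sum holds members that moved in opposite directions. The mean of *Cyp2f2* went from 62.4 CPM in control to 6.69 CPM in *RoraEKO*, and that of *Cyp2b10* from 34.9 to 69.4 CPM. These sums were not divided by length, so long transcripts weigh more in them.

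Of the 73 members below the filter, 27 had no count in any library, which allows up to 3 counts per library. Another 28 had between 1 and 10 counts over the 8 libraries together. Among the 46 with counts, 21 were highest in control C6, and 12 had counts in C6 alone. *Cyp2e1*, *Cyp2d26*, *Cyp4a14* and *Cyp2b9*, known as liver enzymes, had 23, 21, 14 and 13 counts in C6 and at most 3 in any other library. *Alb*, the albumin gene of hepatocytes, measured 62.4 CPM in C6, 5.54 CPM in *RoraEKO* C2 and at most 0.914 CPM in the other 6. The 5 hepatocyte markers summed to 76.3 CPM in C6, 7.76 CPM in C2 and at most 1.18 CPM in the others. Their part in the counts of these members was not tested. Without C6 the calls of *Cyp3a13*, *Cyp2b10* and *Cyp2f2* were kept, and that of *Cyp2b19* was lost (log2 fold change -1.56, adjusted p = 0.0887 with the edgeR quasi-likelihood test).

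**Figure D5:**
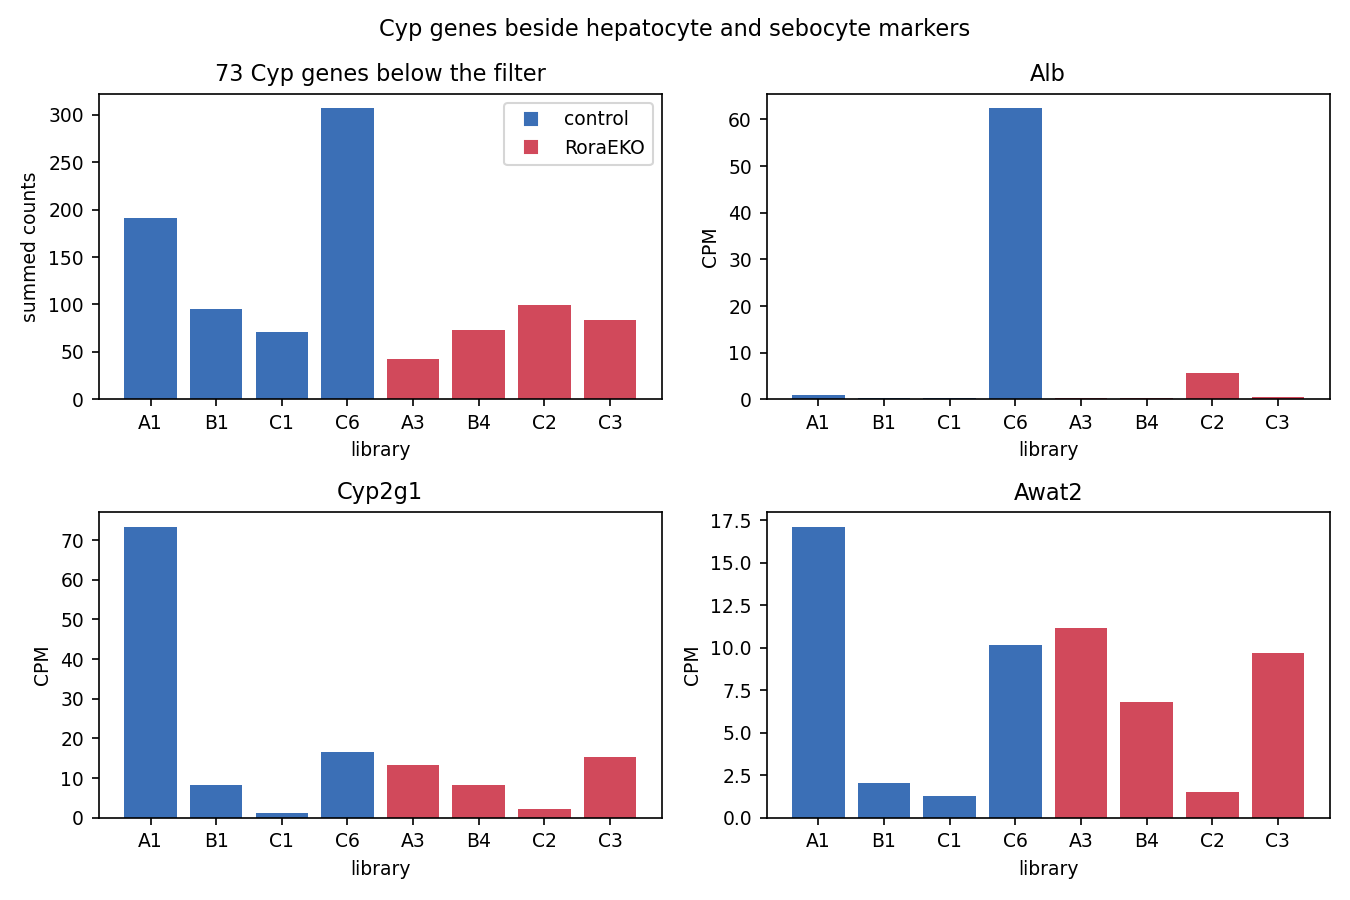
Bars for each library (blue, control; red, *RoraEKO*) of the summed counts of the 73 Cyp genes below the filter, and of the CPM of *Alb*, *Cyp2g1* and *Awat2*. C6 is highest in both upper panels, with 307 counts and 62.4 CPM, and A1 is second in the summed counts (191) and highest in both lower panels.

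Single members below the filter are given by their counts alone, named after their values were seen. *Cyp4v3*, a fatty acid hydroxylase, had 12, 54, 8 and 106 counts in control A1, B1, C1 and C6, and 0, 5, 0 and 0 in *RoraEKO* A3, B4, C2 and C3. Most of its counts were in C6, the library highest in hepatocyte markers. B1 came second, although those markers summed to 0.546 CPM there, and C2, where they summed to 7.76 CPM, had 0 counts. Their part in the counts of *Cyp4v3* was not tested. *Cyp4v3* shares 313 exon bases with *Gm45753* on the same strand. *Cyp4x1* had 0, 0, 0 and 1 counts in control A1, B1, C1 and C6, and 1, 6, 47 and 22 counts in *RoraEKO* A3, B4, C2 and C3. Its counts lay mainly in C2 and C3. *Cyp3a57* had 93 counts in control A1 and between 0 and 18 in the others.

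Genes that work with P450s were read from 5 lists. Over these lists, 2 of 29 tested genes passed the cutoffs (6.9%), against 5.51% of all genes tested. Of 13 genes for electron donors and haem supply, all were tested, and 1 passed the cutoffs. *Por*, the oxidoreductase, measured 89.3 ± 12.6 CPM in control and 90.9 ± 10.2 CPM in *RoraEKO* (log2 fold change 0.03 with edgeR's quasi-likelihood test, adjusted p = 0.961). *Hmox1*, which breaks down haem and was the most abundant of the list, measured 322 ± 247 and 356 ± 149 CPM (log2 fold change 0.14 with edgeR's quasi-likelihood test, adjusted p = 0.943). *Pgrmc2*, a haem-binding membrane protein related to cytochrome b5, measured 165, 186, 178 and 201 CPM in control A1, B1, C1 and C6, and 84.1, 103, 88.8 and 79.5 CPM in *RoraEKO* A3, B4, C2 and C3. It fell without overlap (log2 fold change -1.04 with edgeR's quasi-likelihood test, adjusted p = 0.00156), and it passed the cutoffs in all 20 alternatives.

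Of 14 receptors that act on Cyp genes and their partners, including the repressor *Ahrr*, 8 were tested. None passed the cutoffs with the edgeR quasi-likelihood test nor with DESeq2. Of the 8, 1 (*Ahr*) had an unadjusted p under 0.05 (0.0410). *Ahr*, the aryl hydrocarbon receptor, had a log2 fold change of -0.61 (adjusted p = 0.248), and it passed with the title letter as a block (adjusted p = 0.0425). Its log2 fold change was -0.17 with *Xist* as a covariate, -0.13 over the libraries without *Xist* and -0.32 without control C6. *Rxra*, a common partner of nuclear receptors and the most abundant of the list, measured 239 ± 38.7 and 253 ± 22.9 CPM (log2 fold change 0.08 with edgeR's quasi-likelihood test, adjusted p = 0.862). *Nr1i2* and *Nr1i3*, the receptors PXR and CAR that act on *Cyp3a* and *Cyp2b* genes in liver, were at or below 0.145 CPM in every library and were not tested. Of 5 further targets of the aryl hydrocarbon receptor, 4 were tested, and 1 passed the cutoffs. *Tiparp* and *Aldh3a1* had log2 fold changes above 0 (0.30 and 0.18) and *Ugt1a6b* had one below 0 (-1.60), and these did not pass. *Ugt1a6a*, a glucuronosyltransferase, fell. It measured 12.6, 22.1, 15.4 and 15.8 CPM in control A1, B1, C1 and C6, and 10.6, 7.40, 9.35 and 10.1 CPM in *RoraEKO* A3, B4, C2 and C3. The groups did not overlap (log2 fold change -0.82, SE 0.202, adjusted p = 0.0367, edgeR quasi-likelihood test). Its call was lost in 9 of 20 alternatives, namely with *Xist* as a covariate, over the libraries without *Xist*, and without A3, B1, B4, C1, C2, C3 or C6 (adjusted p from 0.0691 to 0.147), and genes of the *Ugt1a* locus share exons.

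Of 4 epoxide hydrolases, which open the epoxides that epoxygenases make, 3 were tested and none passed the cutoffs with the edgeR quasi-likelihood test or with DESeq2. The smallest unadjusted p among them was 0.478. *Ephx3*, the most abundant, measured 84.0 ± 12.3 CPM in control and 76.6 ± 18.1 CPM in *RoraEKO*. Of 4 P450 genes outside the naming pattern, Cyp51, the lanosterol demethylase of cholesterol synthesis, was tested and had a log2 fold change of 0.40 (adjusted p = 0.289, edgeR quasi-likelihood test).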

How the data were processed

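The authors trimmed the read pairs of stranded mRNA libraries with Skewer. They used STAR 2.5.3a for mapping to GRCm39 and ran RSEM for counts per gene. The authors deposited the unscaled expected counts, with 55416 Ensembl genes as rows and 8 libraries as columns. The annotation release and whether strand was used in counting are not given in the sources used here. *Cyp2b19*, *Cyp2f2*, *Cyp2s1* and *Cyp3a13* overlap exons of non-coding genes on the opposite strand over 5.25%, 8.23%, 9.06% and 21.3% of their exon bases.

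Symbols, exons and coordinates came from GENCODE release M39, in which 54749 identifiers were found. Expected counts were rounded, filtered with filterByExpr and scaled by TMM. The test was edgeR's quasi-likelihood test (version 4.0.16, R 4.3.3) over 13147 genes, with no covariate. Standard errors were computed for the difference between genotypes on the log2 CPM scale (prior count 2). The scripts were tested on simulated data. Floors of 3 counts cover counting error only. Named were *Rora*, members past the cutoffs or without overlap between genotypes, the 10 highest members per kilobase, and, in the lists of partner genes, those past the cutoffs and the most abundant per kilobase. Members and lists were chosen with earlier results of these data known. Names from outside this rule were chosen after their values were seen.

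Identity was computed on coding sequences with Biopython 1.88, since protein sequences were not used here. Promoters came from RefSeq (GRCm38.p6), and 70 members had one. The alternatives were DESeq2 1.42.0, scaling by RLE or by library size alone, edgeR's likelihood ratio, exact, non-legacy and robust tests, filters of at least 1 count over all libraries or at least 10 in every library, the title letter as a block, *Xist* as a covariate, the libraries without *Xist*, the adjusted p alone and each library left out in turn. For the order of levels they were the longest transcript as the length and control libraries alone. Plots were drawn with matplotlib 3.10.9.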

Additional observations from a re-analysis of the deposited data

Results flagged for a closer look

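In 7 of 57 groups of 4 libraries, 1 library stood further from the others than Dixon's 95% limit for a group of that size. That limit flags about 1 group in 20 where values are normally distributed. Members below the filter have few counts, and a group with all but 1 library at 0 gives 1 whatever that library holds. The 7 flagged groups can therefore not be set against that rate. The gap to the nearest library was 0.888 of the range for *Cyp17a1* in control, where C1 measured 24.5 CPM and the others 31.9 to 32.8 CPM. It was 0.906 for *Cyp39a1* in *RoraEKO*, where C2 measured 5.01 CPM and the others 3.37 to 3.52 CPM. Among members below the filter it was 0.876 for *Cyp3a57* in control (A1 at 3.54 CPM, the others at most 0.437 CPM), 0.83 for *Cyp27a1* in *RoraEKO* (C2 at 0.145 CPM, the others at 0.349 CPM or more) and 1 for *Cyp4v3* in *RoraEKO* (B4 at 0.205 CPM, the others at 0). For the liver enzymes *Cyp2e1* and *Cyp2d26* in control it was 0.835 and 1, with C6 at 0.863 and 0.788 CPM and the other control libraries at most at 0.142 and 0 CPM. *Alb* was also highest in C6.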

How the results depend on the processing

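*Cyp3a13* and *Cyp2b10* passed the cutoffs as higher in every alternative, and the count of higher members was 2 to 2 as each library was left out. The count of lower members was 2. Both counts were 3 when every gene with at least 1 count was tested, with *Cyp4x1* and *Cyp4v3* added. The count of lower members was 1 with *Xist* as a covariate, 0 over the libraries without *Xist*, and 0 to 2 as each library was left out. Without control C1 the 2 were *Cyp2f2* and *Cyp4v3*, and *Cyp2b19* lost its call. Titles share letters and not numbers across genotypes, and the meaning of the letters is not given. Same-letter libraries had correlations of deviations from 0.0498 (letter B) to 0.483 and different-letter libraries from -0.517 to 0.282. All same-letter values were above 0, and for control B1 the value with *RoraEKO* B4 was its highest with any *RoraEKO* library. Since the labels do not explain the letters, they were used only as a block in an alternative, and not as pairs. With the letter as a replicate block, 420 genes passed as higher and 579 as lower (302 and 423 without it), and the 4 member calls were unchanged.

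Over the alternatives refitted across all genes with both cutoffs, genes called higher ran from 147 to 478 and lower from 167 to 579. The sign of members near 0 depended on the setting, and the cause was not tested. Log2 fold changes with the other sign were, with *Xist* as a covariate, -0.045 for *Cyp1a1*, -0.053 for *Cyp1b1*, 0.23 for *Cyp2r1*, 0.0074 for *Cyp4f17* and 0.17 for *Rora*. Over the libraries without *Xist* they were -0.0070 for *Cyp1a1*, -0.0049 for *Cyp1b1*, 0.29 for *Cyp2r1*, 0.056 for *Cyp4f17*, 0.21 for *Rora* and 0.0095 for *Ephx3*. With the letter as a block they were -0.020 for *Cyp11a1* and -0.028 for *Cyp1b1*, with library size alone -0.045 for *Cyp1b1* and -0.025 for *Por*, and with the non-legacy test -0.020 for *Cyp1b1*. As libraries were left out in turn, values ran from -0.40 to 0.38 for *Cyp11a1*, -0.28 to 1.07 for *Cyp1a1*, -0.24 to 0.26 for *Cyp1b1*, -1.74 to 0.17 for *Cyp2g1*, -0.77 to 0.063 for *Cyp4b1*, -0.63 to 0.14 for *Cyp4f16*, -0.16 to 0.12 for *Cyp4f17*, -0.061 to 0.12 for *Por*, -0.29 to 0.040 for *Ephx3* and -0.23 to 0.15 for *Rora*. Members below about 1 CPM rest on few counts per library.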
